A study of Zea mays with 6 samples.

Results

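The genes of ethylene synthesis, perception and response were followed in reproductive-stage roots of the maize cultivar Nongda108. Intercropped maize shared its greenhouse soil, a fertilised calcareous sand, with peanut (cultivar Luhua14), and monocropped maize was grown alone on it. Each group had 3 root samples, and each sample was read on 1 Affymetrix maize array of 17734 probe sets, each of which is several short probes for the same transcript. The labels give neither a plant age in days nor whether the samples are separate plants, so the p-values rest on a spread between samples that may be technical. The ethylene set was drawn from the 12255 probe sets of the authors' table. It holds every probe set whose symbol names an ACC oxidase (ACO), an ACC synthase (ACS), an ethylene receptor (ETR, ERS) or an EIN or EIL factor, or whose title or description names ethylene or aminocyclopropane. This gave 12 probe sets, after 2 further matches were dropped because the word was only part of "methylene". Of the 12, 5 carry a symbol (ACO20, ACO31, ERF1 and 2 for ETR2), and 7 are described only by similarity to an Arabidopsis protein, graded weak for 6 of them and moderate for the one like response element binding factor 1. Those 7 are called here by the protein they resemble.

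Ethylene is a gaseous plant hormone. It is made from S-adenosylmethionine: ACC synthase forms the intermediate ACC (aminocyclopropane carboxylic acid), and ACC oxidase turns ACC into ethylene with the release of cyanide. Receptors of the ETR and ERS type sit in the endoplasmic reticulum membrane and keep the kinase CTR1 active until they bind ethylene, so that they restrain the response. Downstream, EIN3-type factors switch on genes of ethylene response factors, which bind DNA through an AP2 domain. In maize roots ethylene is known for its part in the formation of air spaces (aerenchyma) under low oxygen or poor nutrient supply.

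In intercropped roots the 3 ACC oxidase probe sets and the ETR2 receptor had lower signals on all arrays than in monocropped roots, with log2 differences of -2.18, -1.53, -1.05 and -0.65. The remaining 8 probe sets had log2 differences between -0.66 and 0.11. Signals are linear intensities that the authors had scaled, and differences are intercropped minus monocropped in log2 signal. All 12 probe sets passed the filter of a signal of at least 50 on at least 3 arrays. They came from the 12255 of 17734 probe sets in the authors' table, so an ethylene probe set outside that table could not enter the set. With limma, adjusted by Benjamini-Hochberg over 13116 tested probe sets, 0 of the 12 were called, with a lowest adjusted p = 0.219, and the share called among all probe sets was 0% (lowest adjusted p = 0.129). At an unadjusted limma p under 0.05 there were 4 of the 12, all lower, while among all tested probe sets 5.51% were lower at that level and 11.1% were past it in either direction. The count is no test of the set. ACO20 and the ACC oxidase-like probe set entered it by name with earlier results known, and ACO31 passed the filter through its monocropped arrays alone. The authors' deposited table, made with SAM, has 5 probe sets with a q-value of 0, all higher in intercropped roots and none of them in the ethylene set.

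**Figure D1:**
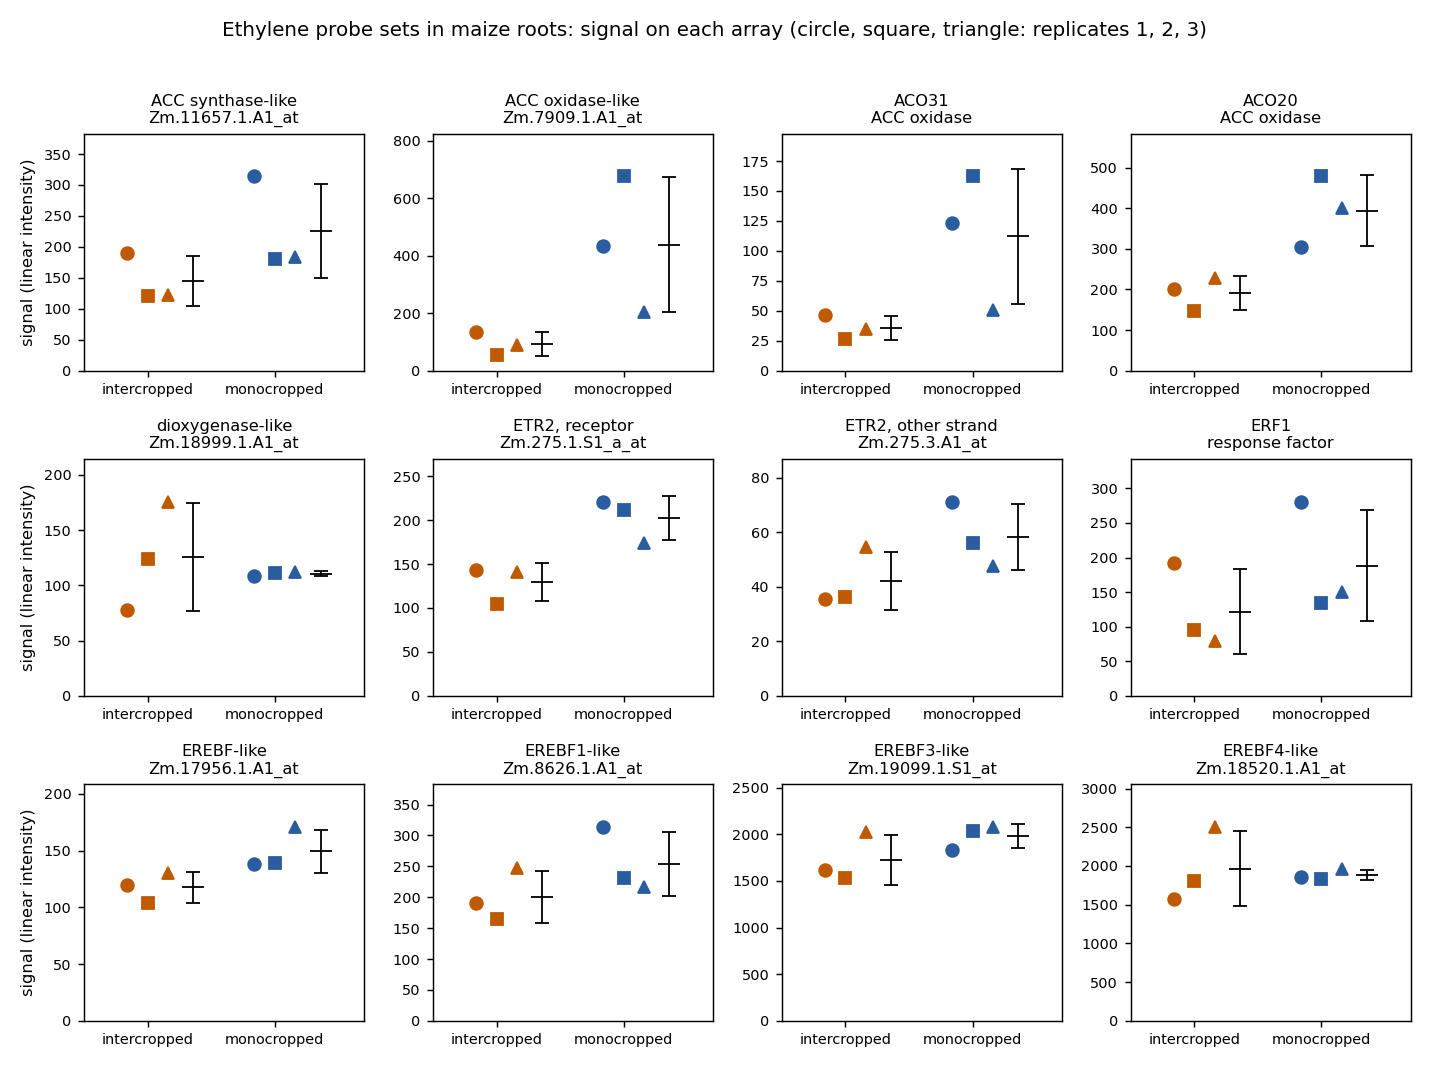
Signal of each of the 12 ethylene probe sets (linear intensity, axes from 0) on the intercropped arrays (left, orange) and the monocropped arrays (right, blue). Circles, squares and triangles are replicates 1, 2 and 3, and the black bars give mean ± SD. The groups separate completely for both named ACC oxidases, the ACC oxidase-like probe set, the ETR2 receptor and the response factor of unnumbered similarity.

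ACC synthase commits S-adenosylmethionine to ethylene and is usually taken as the controlling step. The set held 1 probe set for it, weakly similar to an ACC synthase of Arabidopsis. Its values, and those of the dioxygenase-like probe set, ERF1 and the response factor like factor 4, are given although the rule for named genes did not cover them, a choice made after they were seen. Its signals were 191, 121 and 123 in intercropped roots, against 314, 180 and 184 in monocropped roots. The groups overlapped, because intercropped replicate 1 lay above monocropped replicates 2 and 3. The log2 difference was -0.63 ± 0.28 (SE, n = 3 each; limma adjusted p = 0.473), with a 95% interval of -1.28 to 0.03. Without monocropped replicate 1 it was -0.36.

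ACC oxidases carry out the last step. ACO20 had signals of 201, 146 and 228 in intercropped roots, against 305, 479 and 401 in monocropped roots. The highest intercropped array was below the lowest monocropped one, and the group means of log2 signal differed 2.06-fold (95% interval of the log2 difference -1.59 to -0.51). Its limma adjusted p was 0.219 and its unadjusted p 0.00238. Of all tested probe sets, 1.08% had a log2 difference as low as that of ACO20 or lower. The array annotation lists 12 of its probes on the RefSeq transcript of ACO20.

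The second ACC oxidase, ACO31, had signals of 46.3, 26.0 and 34.9 in intercropped roots, against 123, 162 and 50.9 in monocropped roots. All intercropped signals lay below 50, so ACO31 passed the filter through its monocropped arrays alone and a lower intercropped signal was built into its passing. Monocropped replicate 3, at 50.9, lay just above the highest intercropped array, at 46.3. The log2 difference was -1.53 (95% interval -2.55 to -0.51; limma adjusted p = 0.287), and -1.01 when 32 was added to each signal before the log, a setting that shrinks differences of dim probe sets. The annotation lists 15 of its probes on the RefSeq transcript of ACO31 and 1 probe that may also bind another transcript.

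The ACC oxidase-like probe set, weakly similar to a putative ACC oxidase of Arabidopsis, had the lowest log2 difference of the set. Its signals were 135, 53.1 and 89.0 in intercropped roots, against 433, 676 and 205 in monocropped roots. The groups were apart, but each spread widely, with a coefficient of variation of 44.4% in intercropped and 53.8% in monocropped roots. The 95% interval of the log2 difference was -3.32 to -1.05 (limma adjusted p = 0.219), and 0.0686% of all tested probe sets had a difference as low or lower. In ACO20 the coefficients of variation were 21.9% in intercropped and 22.1% in monocropped roots. The description names only the enzyme class, and other plant dioxygenases share sequence with ACC oxidases.

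The dioxygenase-like probe set, weakly similar to an ethylene-forming-enzyme-like dioxygenase of Arabidopsis, differed in pattern from the 3 oxidases. Its signals were 78.0, 123 and 176 in intercropped roots, against 108, 111 and 112 in monocropped roots. The monocropped arrays were nearly equal and lay inside the range of the intercropped ones. The log2 difference was 0.11, with a 95% interval of -0.55 to 0.77, and it turned to -0.17 without intercropped replicate 3.

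**Figure D2:**
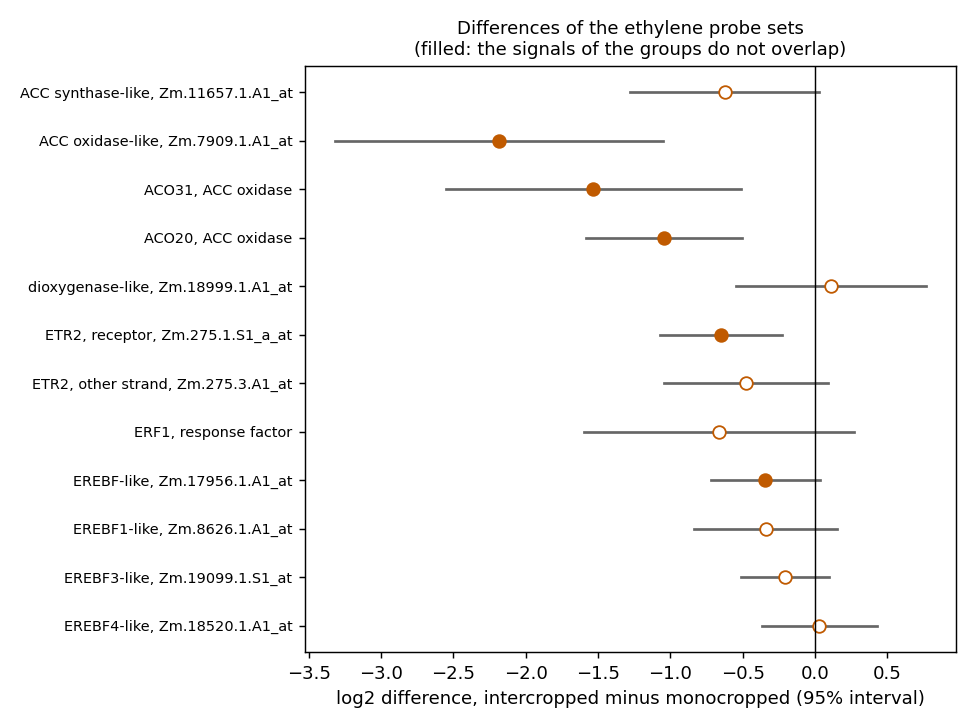
Log2 difference of each ethylene probe set, intercropped minus monocropped, with its 95% interval from limma (horizontal bars). Rows run from synthesis at the top through receptors to response factors, filled points mark groups that do not overlap, and the 3 ACC oxidase rows lie farthest to the left, at -2.18, -1.53 and -1.05.

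ETR2 is a membrane receptor of ethylene. The probe set for its transcript had signals of 143, 104 and 141 in intercropped roots, against 221, 211 and 174 in monocropped roots. The groups did not overlap, and within each group the arrays were close, with a coefficient of variation of 16.9% in intercropped and 12.4% in monocropped roots. The means of log2 signal differed 1.57-fold, with a 95% interval of the log2 difference of -1.07 to -0.23 (limma adjusted p = 0.287). The annotation lists 15 of its probes on the RefSeq transcript of ETR2 and, for each of 2 other transcripts, 1 probe that may also bind it.

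A second probe set under the same symbol is not a plain reading of the ETR2 transcript by the annotation: 13 of its probes are listed as matching the negative strand of that RefSeq transcript. Of the 12255 probe sets in the authors' table, 1341 carry such a note for some transcript. Its signals were 35.6, 36.4 and 54.5 in intercropped roots, against 71.2, 56.1 and 47.6 in monocropped roots. They were near the filter level of 50 and the groups overlapped. The log2 difference was -0.48 (95% interval -1.04 to 0.09), and -0.29 after adding 32.

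Among the ethylene response factors, ERF1, an AP2-domain protein of maize, had signals of 192, 94.7 and 78.5 in intercropped roots, against 281, 134 and 150 in monocropped roots. Replicate 1 was the highest array in both groups, and the groups overlapped. The log2 difference was -0.66 ± 0.40 (SE; limma adjusted p = 0.601). Leaving out monocropped replicate 1 gave -0.33, and leaving out intercropped replicate 3 gave -0.40. Leaving out intercropped replicate 1 gave -1.05.

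The response factor of unnumbered similarity, described as an ethylene responsive element binding factor-like protein, was the 1 response factor whose groups did not overlap. Its signals were 119, 104 and 130 in intercropped roots, against 138, 139 and 171 in monocropped roots. The gap between the groups was small, 130 against 138, and the 95% interval of the log2 difference of -0.34 ran from -0.72 to 0.03 (limma adjusted p = 0.494).

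The other 3 response factors overlapped between groups. The one similar to binding factor 1 had a log2 difference of -0.34, and -0.18 without monocropped replicate 1. The one similar to factor 3 had -0.21, and -0.13 without intercropped replicate 2 or -0.33 without intercropped replicate 3. The one similar to factor 4 had 0.03, with 1572, 1810 and 2505 in intercropped roots, against 1857, 1836 and 1964 in monocropped roots. The 95% interval of the last, -0.37 to 0.43, leaves room for a difference in either direction.

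Of the 12 probe sets, 10 had a lower and 2 a higher mean log2 signal in intercropped roots, and the median of the 12 log2 differences was -0.55. Over all probe sets tested 48.1% were lower, and the median was 0.01. Groups that did not overlap were found for 5 of the 12, all lower, against 8.69% of all tested probe sets lower in this way and 8.29% higher. ACO20 and the ACC oxidase-like probe set entered the set by name with earlier results known, and ACO31 passed the filter through its monocropped arrays alone. These counts therefore describe the set and are no test of it. The median was -0.35 without monocropped replicate 1. The count of probe sets with groups apart was 8 without intercropped replicate 1, of which 7 were lower, and 9 without intercropped replicate 3, all lower. A group of 2 arrays overlaps less easily by its construction, and the share over all tested probe sets was not counted with 1 array left out.

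**Figure D3:**
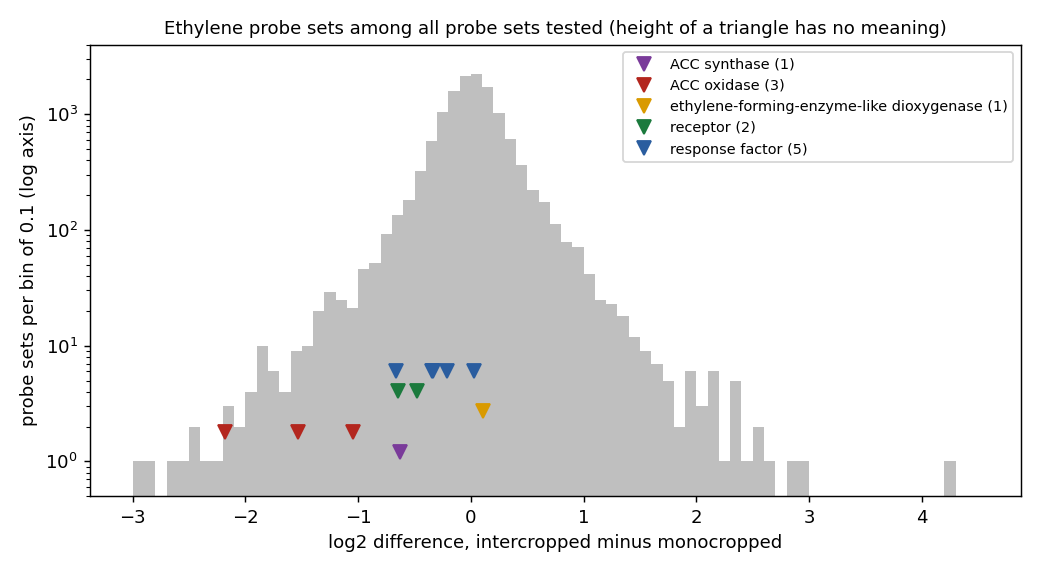
Number of probe sets per bin of 0.1 in log2 difference (grey bars, logarithmic vertical axis) over the 13116 tested, with the 12 ethylene probe sets as triangles coloured by role. The ACC oxidases lie in the left tail, and the response factors lie between -0.66 and 0.03.

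The arrays did not contribute evenly. Intercropped replicate 2 was the lowest intercropped array for 8 of the 12 probe sets, among them all 3 ACC oxidase probe sets and the ETR2 receptor. Over all tested probe sets that array was the lowest of its group in 27.5%. Among monocropped arrays, replicate 2 was the highest for all 3 ACC oxidase probe sets, and it was the highest of its group for 30.6% of all tested probe sets. ACO31 and the ACC oxidase-like probe set had the same order of arrays within both groups, with replicate 3 the lowest of the monocropped arrays, while ACO20 was lowest on monocropped replicate 1. Intercropped replicate 3 was the highest intercropped array for 7 of the 12, including 4 of the 5 response factors, and for 35.5% of all tested probe sets.

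**Figure D4:**
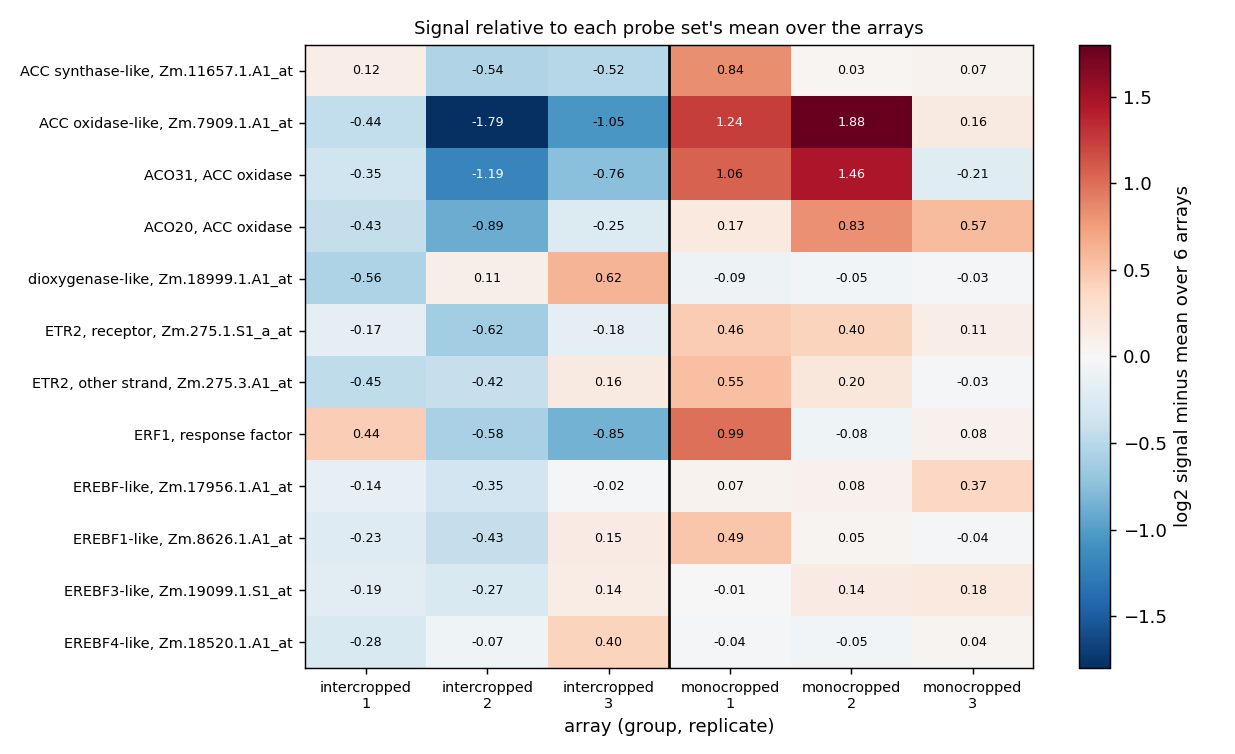
Log2 signal of each ethylene probe set (rows, by role) on each array (columns, intercropped left and monocropped right) minus its mean over the 6 arrays. Red is above and blue below the mean. The ACC oxidase-like probe set spans -1.79 on intercropped replicate 2 to 1.88 on monocropped replicate 2, and the dioxygenase-like probe set and the factor 4-like one vary mainly among the intercropped arrays.

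The probe sets most like ACO20 over the arrays were sought among 4220 others with a symbol, a title or a described similarity, by Pearson's r of log2 signal over 6 arrays that fall into 2 groups. The closest was MMT, which makes S-methylmethionine by moving a methyl group from S-adenosylmethionine to methionine (r = 0.996). Its signals were 1129, 994 and 1266 in intercropped roots, against 1388, 1788 and 1615 in monocropped roots, so the groups were apart with a log2 difference of -0.50. Next came a probe set similar to an unknown Arabidopsis protein (r = 0.994) and one similar to the hydrophobic membrane protein RCI2B (r = 0.991). Their log2 differences were -0.48 and -0.71. Within the set the values of r with ACO20 were 0.87 for the ACC oxidase-like probe set, 0.87 for the ETR2 receptor and 0.79 for ACO31, and -0.06 for the dioxygenase-like probe set. These r describe 6 arrays of 2 groups, so any probe set that differs between the groups shares part of the pattern.

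Of the genes sought for the supply of S-adenosylmethionine, 4 probe sets were matched, namely 3 homocysteine S-methyltransferases and 1 methionine synthase. No probe set matched S-adenosylmethionine synthetase by that name, so the step that makes S-adenosylmethionine itself was not followed. The 4 log2 differences were all above 0, with a median of 0.21. Homocysteine S-methyltransferases use S-methylmethionine to turn homocysteine into methionine. The second of them (LOC541874) had signals of 157, 216 and 137 in intercropped roots, against 40.1, 33.8 and 63.6 in monocropped roots. All intercropped arrays were above all monocropped ones, with a log2 difference of 1.92 ± 0.28 (SE, limma adjusted p = 0.134), opposite in direction to the ACC oxidases. It reached 50 on all 3 intercropped arrays but on 1 monocropped array, so it passed the filter through the group where it was high. The third (LOC541875) had 201, 241 and 168 in intercropped roots, against 160, 188 and 152 in monocropped roots, and its groups overlapped. Limma called 0 of the 4, against 0% of all tested probe sets, and 1 had an unadjusted p under 0.05, against 11.1% of all.

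Beyond the ethylene set, 8 probe sets for AP2-domain factors were measured, among them 2 for the same transcript cluster, and 4 had lower and 4 had higher log2 signal in intercropped roots, with a median of -0.09 over the 8 differences. A probe set similar to an AP2-domain protein had 599, 508 and 539 in intercropped roots, against 770, 754 and 630 in monocropped roots (limma adjusted p = 0.366). It was the 1 probe set of the 8 with groups apart, where among all tested probe sets 8.69% were apart and lower and 8.29% apart and higher. One similar to RAP2 had a log2 difference of 0.21 with overlapping groups. The kinase CTR1 was represented by a probe set similar to CTR1 of Arabidopsis, with 140, 130 and 127 in intercropped roots, against 181, 145 and 150 in monocropped roots. These groups were also apart, with a log2 difference of -0.25 (limma adjusted p = 0.578). Xyloglucan endotransglycosylases loosen the wall and are known to be induced in flooded maize roots, and xet1 had 215, 694 and 802 in intercropped roots, against 333, 171 and 406 in monocropped roots. Its log2 difference of 0.79 had a 95% interval of -0.47 to 2.05. No probe set matched cyanoalanine synthase, which removes the cyanide released by ACC oxidase.

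Array medians were 134.8 to 142.3. Of the root markers sought, zrp4 and ys1 were matched, and zrp4, a root-preferential gene, had signals of 427, 560 and 438 in intercropped roots, against 485, 208 and 372 in monocropped roots. The iron transporter gene ys1 had 121, 187 and 203 in intercropped roots, against 227, 212 and 209 in monocropped roots. Probe sets for green tissue, which roots should lack, were 22, of which 15 were lower in intercropped roots. Their summed signal was 3469 to 4061 in intercropped and 3704 to 5806 in monocropped roots, highest on monocropped replicate 2, the array on which the ACC oxidases were also highest. Of the 22, 5 had an unadjusted limma p under 0.05, all lower (5.51% of all tested probe sets), and 4 of these had groups apart (8.69% of all). They were an unnamed probe set matched to the small subunit of Rubisco, the carbon-fixing enzyme, and the 4 for pdk1, an enzyme of photosynthetic carbon fixation. In the same list 7 were higher, among them pep1 with a log2 difference of 0.35. For ssu1, the named gene of the small subunit, the log2 differences were -0.30 and -0.13, and for Cab-m7 they were 0.22 and -0.0024. These marker values were picked after they were seen. The unnamed one had 63.3, 41.6 and 47.3 in intercropped roots, against 79.6, 340 and 163 in monocropped roots, and its log2 difference was -1.72. One for pdk1 had 86.0, 70.1 and 62.3 in intercropped roots, against 107, 538 and 166 in monocropped roots, and the 4 for pdk1 had log2 differences of -1.56 to -0.79. In both, monocropped replicate 2 was again the highest array. The pdk1 probe set at -0.79 had 55.7, 41.1 and 38.8 in intercropped roots, against 100, 65.6 and 70.2 in monocropped roots. Unlike the other pdk1 probe sets it was highest on monocropped replicate 1, and replicate 2 was the lowest of its monocropped arrays. The 33 probe sets matched as dividing tissue by histone, cyclin or proliferating cell nuclear antigen names summed to 17904 to 24600.0 in intercropped and 19912 to 24399 in monocropped roots. Several of the brighter ones are titled histone H3.3, a form not confined to dividing cells, so the sum is no measure of dividing tissue alone. Of the 33, 24 were lower and 9 higher in intercropped roots. Groups were apart for 3 that were lower and 1 that was higher, against 8.69% and 8.29% of all tested probe sets. The 3 were titled histone H3.3, with log2 differences of -0.27, -0.22 and -0.20. An unadjusted limma p under 0.05 was found for 2 lower and 1 higher, against 11.1% of all in either direction. The smallest p of the list belonged to a probe set without a symbol, described as a D-type cyclin but with probes noted on the negative strand of a transcript. It was higher, with 422, 393 and 355 in intercropped roots, against 233, 236 and 259 in monocropped roots (log2 difference 0.68). The D-type cyclin with a symbol, cycD2, had 314, 353 and 318 in intercropped roots, against 298, 341 and 319 in monocropped roots (log2 difference 0.04). For the proliferating cell nuclear antigen genes pcna1 and pcna2 the log2 differences were -0.37 and -0.24. The part of either marker list in the ethylene values was not tested, and fewer cells of a type and less RNA per cell cannot be told apart in whole roots. The spiked control bioB gave a mean signal of 132 to 438 on the intercropped arrays, against 1117 on monocropped replicate 1 and 198 to 201 on the other 2 monocropped arrays. Without monocropped replicate 1 the log2 differences were -1.22 for ACO20, -1.39 for ACO31, -2.11 for the ACC oxidase-like probe set and -0.58 for the ETR2 receptor.

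In the authors' deposited table, which compares the groups by SAM with 100 permutations, the ACC oxidase-like probe set had a score of -3.06 and ACO20 one of -2.99, which placed them 86th and 97th from the lowest score among 12255. Their q-values in the authors' deposited table were 12.3% and 14.8%. In the authors' deposited table the ETR2 receptor had a q-value of 21.8% and ACO31 one of 22.4%, and the other 8 had 49.7% to 75.4%.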

How the data were processed

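Total RNA of 6 root samples was labelled as biotinylated cRNA and hybridised to single-colour arrays, per the labels' protocols. The deposited series table holds linear intensities that the authors had summarised and scaled, with GCOS 1.4 named in the submitters' processing notes. Neither the summary algorithm nor the scaling target is given in the sources used here, and scaled values hide a shift shared by most transcripts. The authors' filtered table holds log2 of the deposited intensities. Per the file headers, the SAM table gives a score, a log2 difference, a fold change as a ratio and a q-value as a percent.

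Of 17734 probe sets, 179 controls were left out. Signals under 1 were set to 1, log2 was taken, and the 13116 probe sets with at least 50 on at least 3 arrays were fitted with limma 3.58.1 in R 4.3.3 (lmFit, eBayes with trend=TRUE, two-sided, Benjamini-Hochberg, call under 0.05), after a test on simulated data. Groups came from the treatment label. Members and lists were chosen with earlier results of these data known. The rule for named genes took ACO20, the ACC oxidase-like probe set, each ACO, ACS, ETR, ERS, EIN or EIL symbol and any other member with groups apart, then the 2 smallest p of each further pathway list and the 3 probe sets with the highest r with ACO20; marker lists were given as sums and counts, and the members named from them were chosen after their values were seen. Symbols are those of the array annotation, which is old; the genes of all 4 were found in the reference gene table, of which only names were used. Alternatives were 2 other normalizations, 3 other filters, adding 32 before the log, eBayes with trend=FALSE, the replicate block, 1 probe set per gene and leaving out each array. Leaving out the negative-strand ETR2 probe set was added after seeing the data. The number of arrays limits the precision.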

Additional observations from a re-analysis of the deposited data

How the results depend on the processing

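Over the 14 alternatives that gave them a value the log2 differences of 10 of the 12 ethylene probe sets kept their sign, and limma called 0 of the 12 under each of them. The 3 other filters, eBayes with trend=FALSE and the replicate block cannot change a log2 difference in this balanced design. A kept sign under those settings therefore carries no information. The log2 differences of the 3 ACC oxidase probe sets and of the ETR2 receptor were below 0 wherever they had a value. Their groups do not overlap, so leaving out an array or adding 32 could not turn the sign either. Only the 2 other normalizations could have done so. ACO31 had no value under the filter on a mean log2 signal of at least that of 100. The sign turned for the factor 4-like probe set, to -0.0055 with equal array medians and to -0.16 without intercropped replicate 3 (-0.16 to 0.18 with 1 array left out), and for the dioxygenase-like probe set, to -0.17 without intercropped replicate 3 (-0.17 to 0.42). The median log2 difference of the set ran from -0.68 to -0.35 with 1 array left out, and was -0.63 without the negative-strand ETR2 probe set. The number of ethylene probe sets with groups apart ran from 5 to 9 with 1 array left out. A group of 2 arrays overlaps less easily for any probe set, and the share over all tested probe sets was not counted there, so the rise cannot be judged. Over all probe sets limma called 1 when 32 was added to each signal and 0 to 34 with 1 array left out, the 34 without intercropped replicate 1. Same-numbered arrays did not pair: the correlations of their deviations from the group means were 0.27, -0.07 and -0.0041 for numbers 1, 2 and 3. With the replicate block the median stayed at -0.55, 0 ethylene probe sets were called and 0 of all probe sets. Differences of probe sets near a signal of 50, such as ACO31, are the least certain.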
